A study of Homo sapiens with 6 samples.

Results

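The matrix metalloproteinases MMP1, MMP2, MMP3, MMP7, MMP9, MMP10, MMP13 and MMP14, together with the tissue inhibitors of metalloproteinases TIMP1 and TIMP2, were taken from the table of counts by their gene symbols. All 10 genes have a row among the 25349 genes of the table, and 8 of them were among the 14661 genes with enough reads to be tested. The cells were SCC-9, an established human line of tongue squamous cell carcinoma. The siE7 group received an siRNA aimed at exon 7 of MKI67, which encodes the proliferation marker Ki67, and the siNC group a nonspecific control siRNA. Both groups were transfected at 10 nM on day 0 and day 2 and their RNA was extracted on day 4, with 3 sequenced libraries in each group. Both were grown in medium with 10% serum and 400 ng/mL hydrocortisone, a glucocorticoid, so the control cells carried this hormone as well. Of the siRNAs against exon 7 described for the study, the one used for these libraries is not named in the sources used here. The measurements come from 1 cell line, and no source states whether the libraries of a group came from separate cultures, so the p-values measure the spread between these libraries, which may be technical.

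Matrix metalloproteinases are zinc-dependent endopeptidases that cut collagens, laminins and other proteins of the extracellular matrix. Most are secreted as inactive proenzymes, in which a cysteine of the prodomain occupies the zinc of the active site, and they become active when another protease removes the prodomain. TIMPs bind the active site of the mature enzymes and block it. In squamous carcinomas these proteases are known for their part in the breakdown of the basement membrane and in invasion. RNA levels do not measure secretion, activation or inhibition, and in bulk samples fewer cells of a type and less RNA per cell cannot be told apart.

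The libraries held between 25608192 and 29550264 counts on genes. MKI67 itself was measured at 1072, 1029 and 1077 CPM (reads scaled to library size with TMM factors) with siNC and at 111.8, 124.5 and 107.8 with siE7, a log2 fold change of -3.21 (SE 0.11; adjusted p = 6.7e-08, edgeR). Transcripts with and without exon 7 are counted together in these values. The first principal component of log2 CPM held 63.6% of the variance and separated the groups. The second held 17.8% and set siE7 1 apart, at -46.4 against 20.6 and 21.0 for the other siE7 libraries. Of 10 epithelial markers all were tested, and their summed level lay between 24560 and 26100 CPM with siNC and between 21920 and 28610 with siE7. The largest part of this sum was KRT14, with means of 9487 CPM with siNC and 11770 with siE7. Of the markers 6 fell and 1, KRT17 (log2 fold change 0.70), rose, beside 16.0% and 18.0% of all tested genes. KRT18 (-1.27) and CDH1 (-1.03) passed both DEG thresholds, beside 4.84% of all tested genes that did so with a lower level. Of 8 fibroblast markers 6 were under 1 CPM in every library, and the sum of all 8 was 16.6 to 19.7 CPM with siNC and 18.3 to 24.2 with siE7. Most of this sum was COL1A1, with means of 15.31 CPM with siNC and 18.35 with siE7, followed by COL1A2. Of 8 leukocyte markers 4, PTPRC, CD3E, LYZ and MS4A1, have no row in the table, and the sum of the rest was 7.70 to 7.89 CPM with siNC and 3.77 to 6.95 with siE7. Most of it was CSF1R (means of 4.255 CPM with siNC and 2.914 with siE7) and CD14 (2.951 and 2.048). All 5 endothelial markers were under 1 CPM in every library, with sums of 0.284 to 0.568 with siNC and 0.254 to 0.439 with siE7. The part of these shifts in the results on the proteases was not tested.

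Of the 10 genes, only 4 have an entry in the RefSeq promoter table, and these are shown for that reason. They are the member that rose (MMP7), MMP10 of the same gene cluster, the most abundant protease (MMP14) and an inhibitor (TIMP1). Each run is the 250 bases before the RefSeq transcription start on GRCh38.p14, 5′ to 3′ on the strand of the gene. The windows are chr11:102530748-102530997 (minus strand) for MMP7, chr11:102780629-102780878 (minus strand) for MMP10, chr14:22836335-22836584 (plus strand) for MMP14 and chrX:47582186-47582435 (plus strand) for TIMP1. Capitals mark matches to 4 motifs, which are AP-1 (TGANTCA), ETS (AGGAAG, or CTTCCT on the other strand), SP1 (GGGCGG, or CCGCCC on the other strand) and, on the strand of the gene only, the TATA box (TATAAA).
MMP7: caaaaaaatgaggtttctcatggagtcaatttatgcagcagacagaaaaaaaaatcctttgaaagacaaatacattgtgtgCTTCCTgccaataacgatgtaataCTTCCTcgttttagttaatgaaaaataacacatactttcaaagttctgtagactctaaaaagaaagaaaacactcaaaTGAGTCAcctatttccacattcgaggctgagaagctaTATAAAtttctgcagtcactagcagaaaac
MMP10: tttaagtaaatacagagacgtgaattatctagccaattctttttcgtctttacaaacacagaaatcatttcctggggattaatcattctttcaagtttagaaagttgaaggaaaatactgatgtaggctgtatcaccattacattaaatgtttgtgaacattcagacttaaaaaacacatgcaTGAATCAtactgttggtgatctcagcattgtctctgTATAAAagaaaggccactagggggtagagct
MMP14: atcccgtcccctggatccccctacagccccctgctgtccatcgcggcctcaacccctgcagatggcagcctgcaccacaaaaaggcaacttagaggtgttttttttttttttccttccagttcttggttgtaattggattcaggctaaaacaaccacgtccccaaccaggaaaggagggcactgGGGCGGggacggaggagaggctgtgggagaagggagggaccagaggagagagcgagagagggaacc
TIMP1: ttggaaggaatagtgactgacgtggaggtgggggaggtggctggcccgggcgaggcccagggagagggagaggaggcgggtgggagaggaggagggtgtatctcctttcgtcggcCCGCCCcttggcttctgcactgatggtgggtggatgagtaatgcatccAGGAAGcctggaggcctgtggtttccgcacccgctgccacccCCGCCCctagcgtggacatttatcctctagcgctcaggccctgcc
The MMP7 and MMP10 windows shared an arrangement, with an AP-1 match beginning 67 bases before the start in each and a TATA match 30 bases before the start in MMP7 and 31 in MMP10. MMP7 also held ETS matches at 169 and 145 bases before the start. In the MMP14 window the only match was to SP1, at 66 bases, and TIMP1 held an ETS match at 87 bases and SP1 matches at 135 and 45 bases. Among 35116 promoters of the same length, 6.57% held the AP-1 letters, 28.7% ETS, 6.80% TATA and 42.6% SP1. A match is a description of the letters, and binding was not measured. MMP1, MMP2, MMP3, MMP9, MMP13 and TIMP2 have none in the table.

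Between siE7 and siNC, 7 of the 10 genes changed at an adjusted p under 0.05 in the test across all genes. MMP9, MMP1, MMP2, MMP14, TIMP2 and TIMP1 fell and MMP7 rose. MMP3 did not pass, and MMP10 and MMP13 had too few reads to be tested. The 6 that fell stand beside a background of 16.0% of all tested genes that fell, and the 1 that rose beside 18.0% that rose. With the further condition of a log2 fold change beyond 1, which defines a DEG here, MMP9, MMP1, MMP2 and TIMP2 were DEGs with a lower level, against 4.84% of all tested genes, and MMP7 was a DEG with a higher level, against 7.38%. The CPM values of the groups did not overlap for 6 members lower in siE7 (22.7% of all tested genes) and for 1 higher (24.9%). Over the 8 tested members the median log2 fold change was -1.11, beside 0.08 over all tested genes. The 10 genes and the lists below were chosen with earlier results of these data known, so their counts and medians are descriptions and no independent test. Without siE7 1, 6 members fell and 1 rose as well, and MMP3 was at -1.13 with an adjusted p of 0.059 (edgeR). MMP1 and MMP3 reached the minimum for testing through the siNC libraries alone, as they were at or above it in 3 siNC libraries and in 2 and 1 siE7 libraries. Exact two-sided permutation tests of single genes cannot go below 0.1 with 3 libraries against 3, and the 7 members without overlap reached that value.

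**Figure D1:**
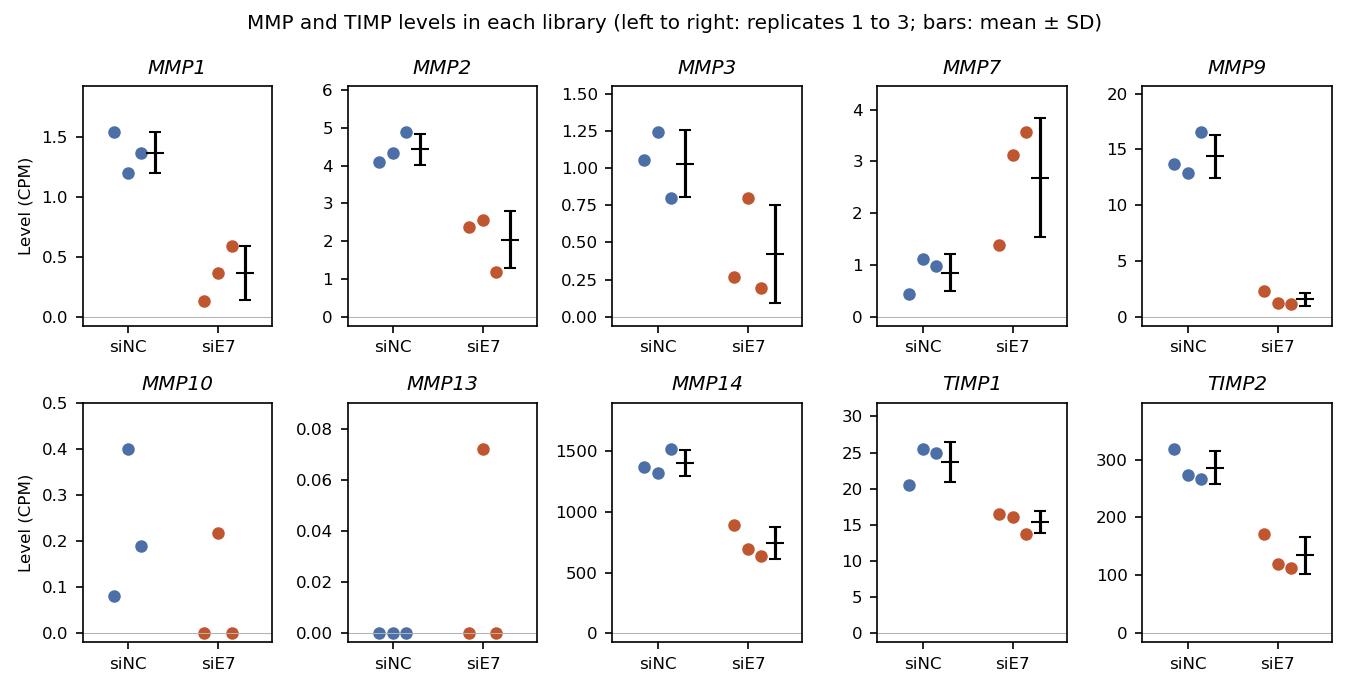
Level of each of the 10 genes in CPM, 1 panel per gene with its own linear axis, 1 point per library (replicates 1 to 3 from left to right) and bars for the mean ± SD of 3 libraries in the 8 tested genes. MMP14 stood at 636.3 CPM or more in every library, MMP9 was lower and MMP7 higher in all siE7 libraries, and MMP10 and MMP13 lay at or near 0.

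**Figure D2:**
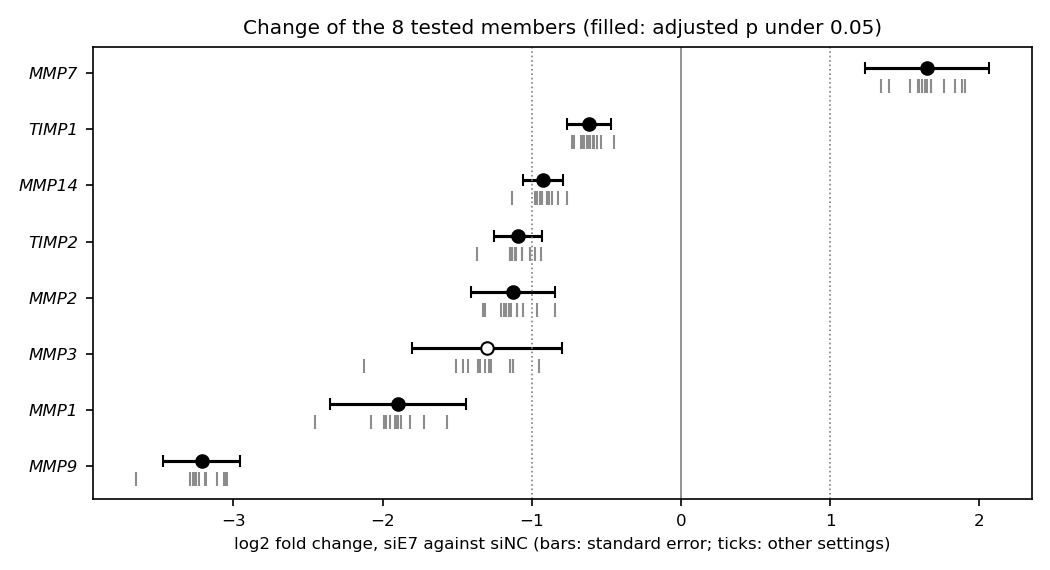
Log2 fold change (siE7 minus siNC) of the 8 tested members with its standard error, derived from the F statistic of edgeR. Marks are filled where the adjusted p was under 0.05, with ticks for the alternative settings and dotted lines at a log2 fold change of 1 in either direction. MMP9 lay farthest below 0 at -3.21, and MMP7 alone lay above 0, at 1.65.

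MMP9, gelatinase B, cuts denatured collagen and the type IV collagen of basement membranes. Its gene lies at chr20:46008908-46016561 (plus strand, GRCh38). The siNC libraries held 337, 323 and 437 reads of MMP9 and the siE7 libraries 67, 33 and 36. Every siE7 library was below every siNC library by a wide margin, and the highest of them was siE7 1. The mean fell from 14.4 ± 1.92 CPM to 1.54 ± 0.620 (SD, n = 3 each), which is 9.31-fold lower. The log2 fold change was -3.21 (SE 0.26; adjusted p = 8.3e-06, edgeR with Benjamini-Hochberg adjustment), the rank 13 from the lowest among 14661 tested genes. It stayed a DEG under all 14 alternative settings, with values from -3.66 to -3.05, and was -3.66 without siE7 1. The antisense gene SLC12A5-AS1, which shares exon bases with MMP9, had 1 read in siNC 1 and none in the other libraries.

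MMP2, gelatinase A, shares the substrates of MMP9 and is the enzyme that MMP14 activates at the cell surface. It lies at chr16:55389700-55506691 (plus strand). MMP2 was measured at 4.09, 4.32 and 4.89 CPM with siNC and at 2.36, 2.57 and 1.18 with siE7. The groups did not overlap, and siE7 3 was the lowest library. The means were 4.43 ± 0.408 and 2.04 ± 0.752 CPM, with a log2 fold change of -1.13 (SE 0.28; adjusted p = 0.01, edgeR). MMP2 remained under an adjusted p of 0.05 in all 14 alternatives but was no DEG without siE7 3 (-0.84) or when libraries were scaled by their totals alone (-0.96), and it was -1.32 without siE7 1. Both gelatinases therefore had lower counts, and the log2 fold change of MMP9 was the larger in size.

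MMP1, the interstitial collagenase that cuts fibrillar collagens, lies at chr11:102789401-102798160 (minus strand). The siNC libraries held 38, 30 and 36 reads of MMP1 and the siE7 libraries 4, 10 and 18. The groups did not overlap, but the siE7 libraries spread widely, with siE7 1 the lowest and siE7 3 the highest. The mean was 1.37 ± 0.169 CPM with siNC and 0.362 ± 0.227 with siE7, with a log2 fold change of -1.90 (SE 0.46; adjusted p = 0.008, edgeR). In the 13 alternatives that gave a value it ranged from -2.45 to -1.56 (the latter without siE7 1) and MMP1 stayed a DEG. It was at or above the minimum for testing in 3 siNC and 2 siE7 libraries, so it was tested through the group where it is high. The filter of at least 10 counts in every library left it out, as siE7 1 held 4 reads. The pseudogene WTAPP1 lies on the other strand and shares exon bases with MMP1 and MMP3. WTAPP1 had 1, 1 and 0 reads with siNC and 8, 12 and 13 with siE7, the opposite direction to MMP1. The libraries were directional, but the use of strand in counting is not given in the sources used here, and without it reads of these genes cannot be told apart. MMP13, another collagenase, at chr11:102942995-102955732, had no read in 5 libraries and 2 reads in siE7 2, so that nearly all reads of this pair of collagenases were those of MMP1.

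The stromelysins MMP3 and MMP10 have a broad range of substrates and can activate other proMMPs. MMP3, at chr11:102835801-102843609 (minus strand), had 26, 31 and 21 reads with siNC and 8, 22 and 6 with siE7. The groups overlapped, since siE7 2 (0.797 CPM) was above siNC 3 (0.795 CPM), while siE7 1 and siE7 3 were below every siNC library. The means were 1.03 ± 0.224 and 0.421 ± 0.328 CPM, with a log2 fold change of -1.30 (SE 0.50; adjusted p = 0.067, edgeR), which did not pass. The call depended on the fit and on 1 library. Without siE7 2 the value was -2.12 and the adjusted p 0.012 (edgeR), and with all 6 libraries MMP3 also passed with no filter on low counts (-1.31, adjusted p = 0.03, edgeR) and with limma-voom (-1.51, adjusted p = 0.039). MMP10, at chr11:102770502-102780628 (minus strand), had 2, 10 and 5 reads with siNC and 0, 6 and 0 with siE7. The 6 reads of siE7 2 lie within the siNC range, and siE7 2 was the highest siE7 library for MMP3 as well. Fitted with no filter on low counts, MMP10 had an adjusted p of 0.314 (edgeR). The transcripts of MMP3 and MMP10 are the closest pair among the 8 metalloproteinases, with 85.0% identity over 1547 aligned bases and a longest shared run of 96 bases, shorter than the 150-base reads. The next longest run, between MMP2 and MMP9, was 23 bases. How the counting treated reads that match both MMP3 and MMP10 is not given in the sources used here, and their values are uncertain to that extent.

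MMP7, matrilysin, is a small enzyme without the hemopexin domain of the other MMPs described here and is typical of epithelial cells. It lies at chr11:102520508-102530750 (minus strand). The siNC libraries held 11, 28 and 26 reads of MMP7 and the siE7 libraries 41, 86 and 109. All siE7 libraries were above all siNC libraries, with siE7 1 the lowest of its group and siNC 1 the lowest of the controls. The mean rose from 0.850 ± 0.357 to 2.69 ± 1.15 CPM, which is 3.16-fold higher, with a log2 fold change of 1.65 (SE 0.42; adjusted p = 0.01, edgeR). MMP7 stayed a DEG in all 14 alternatives, from 1.34 to 1.90, the highest value being the one without siE7 1.

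MMP14, or MT1-MMP, is anchored in the plasma membrane, cuts pericellular collagen and activates proMMP2. Its gene lies at chr14:22836560-22849041 (plus strand). It was measured at 1371, 1318 and 1523 CPM with siNC and at 889.1, 697.3 and 636.3 with siE7. Every siE7 library was below every siNC library, and siE7 1 lay nearest to the controls. MMP14 was the most abundant member by far, at rank 78 of all tested genes by its mean CPM in siNC. The means were 1404 ± 106 and 741 ± 132 CPM, with a log2 fold change of -0.92 (SE 0.14; adjusted p = 0.00045, edgeR). The change passed in all 14 alternatives, from -1.13 to -0.76, and reached the size of a DEG only without siE7 1 (-1.13).

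TIMP2 inhibits active MMPs and also forms the complex through which MMP14 captures proMMP2. It lies at chr17:78852977-78925387 (minus strand). TIMP2 was measured at 318.9, 272.9 and 266.8 CPM with siNC and at 171.1, 118.9 and 112.7 with siE7. The groups did not overlap, and siE7 1 was again the siE7 library nearest to the controls. The means were 286.2 ± 28.5 and 134.3 ± 32.0 CPM, with a log2 fold change of -1.09 (SE 0.16; adjusted p = 0.00044, edgeR). It was no DEG when scaled by library totals alone (-0.94) or without siE7 3 (-0.98), although the change passed in all 14 alternatives, and it was -1.37 without siE7 1. CEP295NL, which shares exon bases with TIMP2 on the same strand, had 6, 21 and 31 reads with siNC and 64, 28 and 18 with siE7, few beside the 3283 to 7872 reads of TIMP2.

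TIMP1, which binds proMMP9 as well as active enzymes, lies at chrX:47582408-47586789 (plus strand) within the gene SYN1 on the other strand. It was measured at 20.5, 25.5 and 25.0 CPM with siNC and at 16.5, 16.1 and 13.7 with siE7. The groups did not overlap, with siNC 1 and siE7 1 closest to each other. The means were 23.7 ± 2.78 and 15.5 ± 1.53 CPM, with a log2 fold change of -0.61 (SE 0.15; adjusted p = 0.0085, edgeR). The call was lost without siNC 2 (-0.56; adjusted p = 0.054, edgeR) and without siNC 3 (-0.58; adjusted p = 0.05, edgeR), and the log2 fold change was -0.73 without siE7 1.

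Levels of different genes were compared as CPM per kilobase of exon. With siNC, MMP14 stood highest at 303.7 ± 23.0, followed by TIMP2 (46.1 ± 4.58), TIMP1 (16.4 ± 1.92), MMP9 (6.15 ± 0.820) and MMP2 (0.942 ± 0.0867), none of which overlapped its neighbour. Below them came MMP3, MMP1, MMP7 and MMP10, each overlapping its neighbours among these genes, from 0.555 ± 0.121 for MMP3 to 0.127 ± 0.0923 for MMP10, and MMP13 was at 0. With siE7 the order of MMP14 (160.3 ± 28.5), TIMP2 (21.6 ± 5.16) and TIMP1 (10.7 ± 1.06) held, and MMP7 (1.16 ± 0.497) came next. MMP9 (0.661 ± 0.265), MMP2 (0.433 ± 0.160), MMP3 (0.227 ± 0.177) and MMP1 (0.132 ± 0.0829) followed MMP7, each overlapping its neighbour. MMP9 thus moved from rank 4 to rank 5 and MMP7 from rank 8 to rank 4, although in siE7 the values of MMP7 and MMP9 overlapped.

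MMP14 alone made up 97.2% ± 0.0988 of the summed per-length level of the 8 metalloproteinases with siNC and 98.3% ± 0.458 with siE7. The share of MMP9 was 1.97% ± 0.109 with siNC and 0.396% ± 0.0884 with siE7, while that of MMP7 was 0.118% ± 0.0513 and 0.758% ± 0.407. The summed level went from 312.3 ± 23.8 to 162.9 ± 28.3 CPM per kilobase with MMP14, and from 8.65 ± 0.816 to 2.66 ± 0.428 without it. The sum of TIMP1 to TIMP4 went from 79.4 ± 2.79 to 47.5 ± 7.68. The siE7 libraries lay below the siNC libraries in each of these sums.

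Ratios of counts within a library do not depend on the scaling between libraries. The log2 ratio of MMP9 to TIMP1 was -0.58, -0.98 and -0.59 with siNC and -2.87, -3.75 and -3.54 with siE7. The groups did not overlap, and the ratio was 6.36-fold lower with siE7. The log2 ratio of MMP1 to TIMP1 was -3.73, -4.41 and -4.19 with siNC and -6.94, -5.48 and -4.54 with siE7. These groups did not overlap either, although siE7 3 lay close to siNC 2, and the ratio was 2.91-fold lower with siE7.

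The ratios of MMP14 and MMP2 to TIMP2 overlapped. MMP9 and MMP1 were not set against TIMP2, nor MMP14 and MMP2 against TIMP1, so these ratios do not compare the inhibitors. MMP14 to TIMP2 was 2.10, 2.27 and 2.51 on the log2 scale with siNC and 2.38, 2.55 and 2.50 with siE7, a difference of 0.18 between means of 2.30 ± 0.21 and 2.48 ± 0.09. MMP2 to TIMP2 was -6.28, -5.98 and -5.77 with siNC and -6.18, -5.53 and -6.58 with siE7, a difference of -0.09. MMP14, MMP2 and TIMP2, whose products meet in the activation of proMMP2, thus had lower counts in siE7 with ratios that did not separate the groups. Ratios to MMP10 could be formed in 4 libraries, because MMP10 had no read in siE7 1 and siE7 3.

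MMP7, MMP10, MMP1, MMP3 and MMP13 lie in a metalloproteinase gene cluster of 435.2 kb at chr11:102520508-102955732. Of 9 genes of the cluster 6 have a row in the table and 3 were tested, MMP7 rising while MMP1 fell and MMP3 did not pass. MMP7 lies at one end of the cluster, 258.7 kb from MMP1, and MMP1 lies 37.6 kb from MMP3. MMP12, the macrophage elastase of the same cluster, had no read with siNC or in siE7 1 and 6 and 5 reads in siE7 2 and siE7 3. Within 500 kb of either side, 8 other genes were tested, of which 2 rose and 1 fell, each of them a DEG. Over all tested genes 18.0% rose and 16.0% fell, and 7.38% were DEGs with a higher level and 4.84% with a lower one. Whether the locus differs from other loci was not tested. TMEM123, 50.1 kb from MMP7, fell from 27.9 ± 1.26 to 7.70 ± 3.08 CPM (log2 fold change -1.86, SE 0.26; adjusted p = 0.00031, edgeR). RP11-315O6.1, a gene that lies within TMEM123 on the other strand, rose by 2.11 (SE 0.55; adjusted p = 0.012, edgeR) from 0.212 ± 0.163 to 0.929 ± 0.332 CPM. It reached the minimum for testing in 3 siE7 libraries and in 1 siNC library, so it was tested through the group where it is high, and the strand limit given for MMP1 holds for this pair too. CFAP300, a gene of cilia, rose by 1.63 (SE 0.30; adjusted p = 0.0017, edgeR). YAP1 (0.14), BIRC3 (-0.18), BIRC2 (0.01), DCUN1D5 (0.20) and DYNC2H1 (-0.22) did not pass.

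Of 15 other metalloproteinase genes 10 have a row in the table and 4 were tested. Of these 2 fell and none rose, beside 16.0% and 18.0% of all tested genes. MMP15, a membrane-type enzyme, fell by 0.57 on the log2 scale (SE 0.20; adjusted p = 0.044, edgeR) from 19.6 ± 1.30 to 13.2 ± 4.02 CPM. Its level in siE7 1 (17.81 CPM) lay close to that in siNC 1 (18.51 CPM). MMP28, epilysin, fell by 0.53 (SE 0.16; adjusted p = 0.027, edgeR) from 14.8 ± 0.447 to 10.3 ± 1.72 CPM. Neither was a DEG. MMP17 (-0.47) and MMP19 (-0.56) did not pass, and the median of the 4 was -0.55. MMP11, stromelysin-3, was not tested at 0, 0 and 4 reads with siNC and 18, 5 and 12 with siE7, and with no filter on low counts its adjusted p was 0.015 (edgeR).

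Of 5 other inhibitors 3 were tested and none passed. TIMP3, which binds to the matrix, was the most abundant of them at 75.9 ± 2.40 CPM with siNC and 66.9 ± 7.54 with siE7 (log2 fold change -0.18; adjusted p = 0.25, edgeR). TIMP4 had a log2 fold change of 0.56 and RECK, a membrane-anchored MMP inhibitor, of -0.34. Whether the changes of TIMP1 and TIMP2 differ from that of TIMP3 was not tested.

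Proteases and surface proteins listed for links to MMPs or related proteases, such as activation and docking, were mostly lower. Of 16 such genes 15 were tested, 10 fell, none rose, and 7 of the 10 were DEGs. Over all tested genes 16.0% fell, 18.0% rose and 4.84% were DEGs with a lower level. The median of the list was -0.99 beside the 0.08 of all tested genes. This list too was chosen with earlier results of these data known, so its counts and median are a description. PLAU, urokinase, which makes the plasmin that activates proMMPs, fell from 400.6 ± 30.4 to 92.3 ± 20.3 CPM (-2.12, SE 0.15; adjusted p = 5.2e-06, edgeR). ST14, the membrane serine protease matriptase, fell from 328.2 ± 13.1 to 115.5 ± 18.2 CPM (-1.51, SE 0.13). CD44, the hyaluronan receptor that docks MMP9 and MMP14 at the cell surface, fell from 1216 ± 47.7 to 548.1 ± 46.6 CPM (-1.15, SE 0.11). The urokinase receptor PLAUR (-1.29), the kallikreins KLK6 (-1.24) and KLK7 (-1.24) and TSPAN15 (-1.175) also fell. KLK6 had few reads, with means of 1.187 CPM with siNC and 0.5003 with siE7 (adjusted p = 0.032, edgeR). FURIN, which activates proMMP14, fell by 0.58, and LCN2, the lipocalin that forms a complex with MMP9, was at -0.28 with an adjusted p of 0.068 (edgeR). PLAUR, KLK6, KLK7, TSPAN15, FURIN and LCN2 were chosen after their values were seen.

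Of 30 genes for the related ADAM and ADAMTS proteases 18 were tested, 8 fell and 3 rose, beside 16.0% and 18.0% of all tested genes, and the median was -0.02. The share that rose was near that of all genes. ADAM8, a membrane protease with its own disintegrin domain, fell from 37.7 ± 3.14 to 4.87 ± 1.12 CPM (-2.95, SE 0.18; adjusted p = 1.7e-06, edgeR). ADAM19 (-1.79, SE 0.19) and ADAMTS12 (-1.22, SE 0.14) fell as well. The DEGs with a higher level were ADAMTS2, the procollagen N-proteinase (2.01), and ADAMTS16 (1.11), both with means under 2 CPM and chosen after their values were seen. ADAMTS2 reached the minimum for testing in 3 siE7 libraries and in no siNC library, so it was tested only through the group where it is high.

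Of 18 genes for AP-1, ETS, RUNX and NF-κB transcription factors, families known to act on MMP promoters, all were tested, 6 rose and 7 fell, with 3 DEGs in each direction. Over all tested genes 18.0% rose, 16.0% fell, 7.38% were DEGs with a higher level and 4.84% with a lower one. ATF3 rose by 1.55 on the log2 scale (SE 0.14) from 16.5 ± 2.50 to 48.6 ± 1.67 CPM, and FOSB (2.44) and ETS2 (1.01) were the other DEGs that rose. ETV4 fell by 1.49 (SE 0.16) from 39.6 ± 0.806 to 14.0 ± 2.92 CPM, and FOSL1 (-1.26) and ETV5 (-1.15) were the other DEGs that fell. FOSB, FOSL1 and ETS2 were named to complete these counts, after their values were seen. Both AP-1 and ETS families thus held members in both directions, and no binding data were analysed here.

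The genes whose log2 CPM followed a member most closely over the 6 libraries were found by Pearson's r, which the gap between the groups largely sets. For MMP9 they were DHX35, ITGA3 and RP11-872D17.8, and 1169 genes had an r over 0.95. For MMP14 they were SEC14L1, DLGAP4 and ADCY3, and for TIMP2 RAB40C, SMAD3 and FHOD1, with 1107 and 1002 genes over 0.95. MMP7 was followed by MTX2, C4A and LA16c-306E5.3, with 165 such genes, and MMP1 by RNF152, KIF14 and CSNK1G3, with 356. For MMP2 they were MN1, ACACB and GTSE1, for TIMP1 FBXW4, PROSER2 and NLRP7, and for MMP3 DAPK2, ITGB8 and CTD-2325P2.3, with 93, 213 and 19 genes over 0.95.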

How the data were processed

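RNA of 6 SCC-9 libraries was sequenced as directional polyA libraries in paired reads of 150 bases. The authors deposited whole-number counts of reads per gene, without normalization, and per the submitters' processing notes used HISAT2, GRCh38 and DESeq2. The counting tool and its use of strand are not given in the sources used here. Samples were grouped by their titles.

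Genes were filtered by filterByExpr, scaled by TMM and compared by the quasi-likelihood F-test of edgeR 4.0.16 (R 4.3.3) over 14661 genes, with Benjamini-Hochberg adjustment over all of them. Changed means an adjusted p under 0.05, and a DEG also has a log2 fold change beyond 1. The SE of an edgeR log2 fold change is its absolute value divided by the square root of the F statistic. Levels are CPM with TMM factors, divided by kilobases of exon (GENCODE v44) to compare genes, and 25283 of 25349 identifiers matched. Log2 CPM for correlations used a prior count of 2. Transcripts were aligned with Biopython 1.88, in place of proteins, which were not analysed here. Alternatives were DESeq2 1.42.0, limma-voom (limma 3.58.1), other scalings, other filters, a replicate block and each library left out. The fits were tested on simulated data.

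The members and lists were chosen with earlier results of these data known. Named were all members, MKI67, the 3 DEGs with the smallest p in each list, every tested MMP and TIMP, tested genes within 500 kb of the cluster, and the 3 genes most like each member. MMP11, MMP12, RECK and genes overlapping a member were added after their values were seen. The depth of 25608192 to 29550264 counts per library leaves genes of a few reads with little precision.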

Additional observations from a re-analysis of the deposited data

How the results depend on the processing

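All 8 tested members kept the sign of their log2 fold change under every alternative that gave a value. The filter of at least 10 counts in every library gave none for MMP1 and MMP3. The number of member DEGs with a lower level went from 4 to 2 with no composition scaling, which raised the median log2 fold change of all genes by 0.17, and ranged from 2 to 5 with each library left out. It was 2 without siE7 replicate 3 and 5 without siE7 replicate 1, the library that stood apart, where 6 members fell and 1 rose as in the full set. MMP3 passed with no filter on low counts (-1.31), with limma-voom (-1.51), with the replicate block (-1.43) and without siE7 replicate 2 (-2.12). The replicate block gave 7 members that fell and 1 that rose and called MMP3 beside those of the fit without it. Deviations of libraries with the same replicate number correlated at -0.04, -0.02 and -0.05, no library correlated best with the one of its own number, and the samples share only a number. Activation and docking DEGs with a lower level numbered 7, and 8 with DESeq2, 5 with no composition scaling and 6 to 8 with each library left out. ADAM and ADAMTS DEGs with a higher level numbered 2, and 1 with DESeq2, 1 with at least 10 counts in every library and 0 to 3 with each library left out. Other metalloproteinase DEGs with a higher level went from 0 to 1 with no filter on low counts, where MMP11 entered the test, and from 0 to 1 with libraries left out. Transcription factor DEGs with a lower level numbered 3, and 2 with no composition scaling and 3 to 5 with libraries left out, 5 without siE7 replicate 1. Those with a higher level numbered 3, and 2 with DESeq2, 2 with no filter on low counts and 2 to 3 with libraries left out, 2 without siE7 replicate 1. Apart from the effects of the filters, the cause of these shifts was not tested.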
